A study of Homo sapiens with 12 samples.

Results

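The 39 genes described here encode the machinery of autophagy, the enzymes and membrane proteins of the lysosome, and the TFEB family of transcription factors that controls both. They were taken from a list of symbols, and all 39 were found among the 58302 gene rows of an RNA-seq count table of NCI-H520 cells, a human lung squamous cell carcinoma line. The table holds 12 libraries in 4 groups of 3. The first group was OV-L1-FGGY cells, in which *L1-FGGY*, a chimeric transcript of a LINE-1 element and the *FGGY* gene, was overexpressed by lentivirus, with DMSO (L1-FGGY DMSO). The second was OV-L1-FGGY cells with 10 μM ML355, an inhibitor of 12-LOX (12-lipoxygenase). The third was libraries labelled as OV-L1-FGGY with 450 μM NVR, which the labels describe as an inhibitor of L1 (NVR-labelled). The fourth was control cells with DMSO, whose label names no construct and which were read as OV-CTRL. The DMSO content is recorded as 0.2% for all 4 groups. The compounds were added 5 h after seeding, and the length of treatment is not given in the sources used here. The labels name this 1 line for all groups, and no source says that the 3 libraries of a group came from separate cultures, so that p-values measure the spread between these libraries, which may be technical.

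The NVR-labelled libraries went against their label in the overexpressed gene. *FGGY* had 4782 to 6196 counts per library in L1-FGGY DMSO and 5080 to 7346 with ML355, but 82 to 103 in the NVR-labelled libraries and 78 to 91 in OV-CTRL. Across all genes the libraries fell into 2 sides of 6, L1-FGGY DMSO and ML355 against the NVR-labelled libraries and OV-CTRL. The lowest correlation of log2 CPM (counts scaled to the library total and by TMM) was 0.932 within a side, and the highest across sides was 0.774. A comparison across the sides therefore cannot tell the treatment or construct from this split, and the comparisons within a side, ML355 against DMSO and the NVR-labelled libraries against OV-CTRL, share no library. In each group 5 of 7 squamous markers had at most 3 counts in every library. *KRT6A* and *DSG3* had no count, *TP63* had a mean of 0.218 to 3.03 CPM, and *KRT14* had 0.386 CPM in L1-FGGY DMSO, 2.49 CPM with ML355 and 0 in the other groups. *SOX2* was at 0 in L1-FGGY DMSO and with ML355 but had a mean of 10.9 CPM in the NVR-labelled libraries and 16.02 CPM in OV-CTRL. Among markers of other cells, *DCN* of fibroblasts had a mean of 60.9 CPM in L1-FGGY DMSO, 12.5 CPM with ML355 and 0 in the other groups. *COL1A1* had means of 55.6 CPM in L1-FGGY DMSO, 38.4 with ML355, 20.7 in the NVR-labelled libraries and 22.9 in OV-CTRL. *COL1A2* had at most 2 counts in any library. These 3 fibroblast markers summed to 106.0 to 122.0 CPM in L1-FGGY DMSO, 46.3 to 58.3 with ML355 and at most 25 elsewhere. The sum of 4 neuroendocrine markers was 16.7 to 23.8 CPM in the NVR-labelled libraries, 5.08 to 7.61 in OV-CTRL and under 1 CPM in the other side. Summed over 3 endothelial markers, the level was 8.89 to 9.41 CPM in L1-FGGY DMSO and at most 0.69 CPM in any other library. The part of these markers in the results was not tested. Whether both sides are the same cell line was not tested either, and a difference of line cannot be told apart from the construct in any comparison across the sides. Total counts per library ran from 16242082 to 27004768.

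In autophagy, a membrane grows around cell material, closes to form an autophagosome and fuses with a lysosome, whose acid hydrolases break the content down. Kinase and lipid kinase complexes start the membrane, ubiquitin-like conjugation systems attach ATG8 proteins (LC3 and GABARAP) to it, and cargo receptors bind those proteins on one side and ubiquitin-marked material on the other. TFEB and TFE3 enter the nucleus when the kinase mTORC1 is less active and bind an E-box that is common in the promoters of lysosomal genes. In bulk RNA, fewer cells that express a gene and less RNA of it per cell cannot be told apart.

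The promoters that hold this E-box are shown because they include *MCOLN1* and *ATP6V0D1*, the 2 members that fell most under ML355. The search covered RefSeq promoter windows of GRCh38.p14, from 250 bases before to 50 bases after each start, for the letters CACGTG, which read the same on both strands, and for the longer TCACGTGA, which contains them. Windows were found for 34 members, and 7 of them (20.6%) held CACGTG, where 8.77% of 27305 genes and 7.26% of all windows did. TCACGTGA was in 5 of the 34 (14.7%), against 1.18% of genes and 0.98% of windows, which include genes not tested for change. With ML355, *CTSA* of these 5 was lower too (log2 -0.49), while *LAMP1* and *ATG3* gave no call (-0.19 and 0.33). These 5 windows are given 5′ to 3′ along the gene, with CACGTG in capitals. That of *MCOLN1*, the lysosomal calcium channel mucolipin, is chr19:7522374-7522673 on the plus strand, with copies that begin 41 and 14 bases before the start. That of *ATP6V0D1*, a subunit of the lysosomal proton pump, is chr16:67481108-67481407 on the minus strand. That of *CTSA*, protective protein and cathepsin A, is chr20:45891085-45891384 on the plus strand. *LAMP1*, a main glycoprotein of the lysosomal membrane, has chr13:113296989-113297288 on the plus strand with 6 copies. *ATG3*, the enzyme that passes LC3 to lipid, has chr3:112561913-112562212 on the minus strand.
MCOLN1: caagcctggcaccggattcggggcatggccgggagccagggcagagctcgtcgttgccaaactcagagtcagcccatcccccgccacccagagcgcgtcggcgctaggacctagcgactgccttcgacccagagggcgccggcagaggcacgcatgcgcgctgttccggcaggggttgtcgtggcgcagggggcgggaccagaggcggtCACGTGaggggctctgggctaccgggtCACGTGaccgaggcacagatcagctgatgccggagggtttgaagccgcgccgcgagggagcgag
ATP6V0D1: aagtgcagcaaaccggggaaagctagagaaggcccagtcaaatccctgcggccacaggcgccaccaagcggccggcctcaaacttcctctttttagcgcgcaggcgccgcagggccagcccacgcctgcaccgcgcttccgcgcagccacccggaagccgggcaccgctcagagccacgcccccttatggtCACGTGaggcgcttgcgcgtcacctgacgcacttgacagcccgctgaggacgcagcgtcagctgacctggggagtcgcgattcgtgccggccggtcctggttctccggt
CTSA: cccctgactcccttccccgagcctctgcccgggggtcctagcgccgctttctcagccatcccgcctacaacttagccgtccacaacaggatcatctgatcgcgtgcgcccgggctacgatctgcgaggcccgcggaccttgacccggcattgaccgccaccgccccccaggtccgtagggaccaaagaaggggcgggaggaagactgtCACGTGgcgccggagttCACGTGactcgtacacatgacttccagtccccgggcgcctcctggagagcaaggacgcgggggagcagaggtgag
LAMP1: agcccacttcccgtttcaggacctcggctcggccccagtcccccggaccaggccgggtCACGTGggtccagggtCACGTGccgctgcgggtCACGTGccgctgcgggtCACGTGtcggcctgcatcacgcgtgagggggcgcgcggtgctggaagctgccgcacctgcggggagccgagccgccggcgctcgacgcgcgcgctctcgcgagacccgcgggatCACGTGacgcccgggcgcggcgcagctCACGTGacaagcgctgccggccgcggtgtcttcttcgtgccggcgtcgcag
ATG3: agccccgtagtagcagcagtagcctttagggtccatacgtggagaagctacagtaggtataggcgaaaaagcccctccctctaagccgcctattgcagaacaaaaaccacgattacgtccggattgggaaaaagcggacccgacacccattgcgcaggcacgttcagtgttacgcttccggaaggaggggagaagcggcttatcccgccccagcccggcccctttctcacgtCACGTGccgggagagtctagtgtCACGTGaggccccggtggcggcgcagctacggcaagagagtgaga

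*ATG14* and *CTSD* held CACGTG without the flanking letters. Of the 250 genes tested with TCACGTGA in a window, 21.2% were higher and 22.8% lower with ML355, beside 22.7% and 24.5% of 11925 genes with a window and no such letters. In the NVR-labelled libraries against OV-CTRL the shares were 11.6% and 19.2%, beside 15.6% and 17.5%. Across the sides, in L1-FGGY DMSO against OV-CTRL, they were 44.4% and 30.8%, beside 35.1% and 36.9%. The NVR-labelled libraries against L1-FGGY DMSO, with the same DMSO libraries, gave 31.6% and 46.0%, beside 38.7% and 38.5%. Of the other pathway genes described below, 14 tested with a window held TCACGTGA and 118 did not. Of the 14, 21.4% were higher and 35.7% lower with ML355, beside 22.0% and 32.2% of the 118. For the NVR-labelled libraries against OV-CTRL these shares were 28.6% and 0.0%, beside 35.6% and 4.24%. None of these differences was tested. A match of letters is a description and does not show that a factor binds there.

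Per length of exon, *SQSTM1*, the cargo receptor p62, had the highest mean level among the members in 3 of the 4 groups, with 72.2 ± 6.3 CPM per kb (SD, n = 3) in L1-FGGY DMSO, 108 ± 2.1 with ML355 and 58.4 ± 1.1 in OV-CTRL. In the NVR-labelled libraries the cathepsin genes *CTSD* (67.5 ± 28), *CTSB* (59.0 ± 3.6) and *CTSL* (57.5 ± 5.0 CPM per kb) had higher means than *SQSTM1* (49.2 ± 6.1), but the spread of *CTSD* alone covered all of these. At the low end, *GABARAP* had a mean of 0.0865 to 0.272 CPM per kb and *HEXA*, a subunit of hexosaminidase A, 0.907 to 1.29. *GABARAP* shares 48.2% of its exonic bases with other annotated genes. Among them a readthrough gene on the same strand had 0 counts in every library, and reads in bases shared with it fit both genes under any strand setting. For overlap on the opposite strand, no source states how strand was counted. The level of *GABARAP* and its place at the low end are therefore uncertain. The same limit applies to *CTSD*, of which 48.0% is shared, and to *BECN1*, *ATG14*, *WIPI1*, *ATG7*, *SQSTM1*, *CTSA* and *HEXA*, with 16.7% to 28.1%. *MAP1LC3B* has a near-identical copy, *MAP1LC3B2*, so that its reads could be split.

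**Figure D1:**
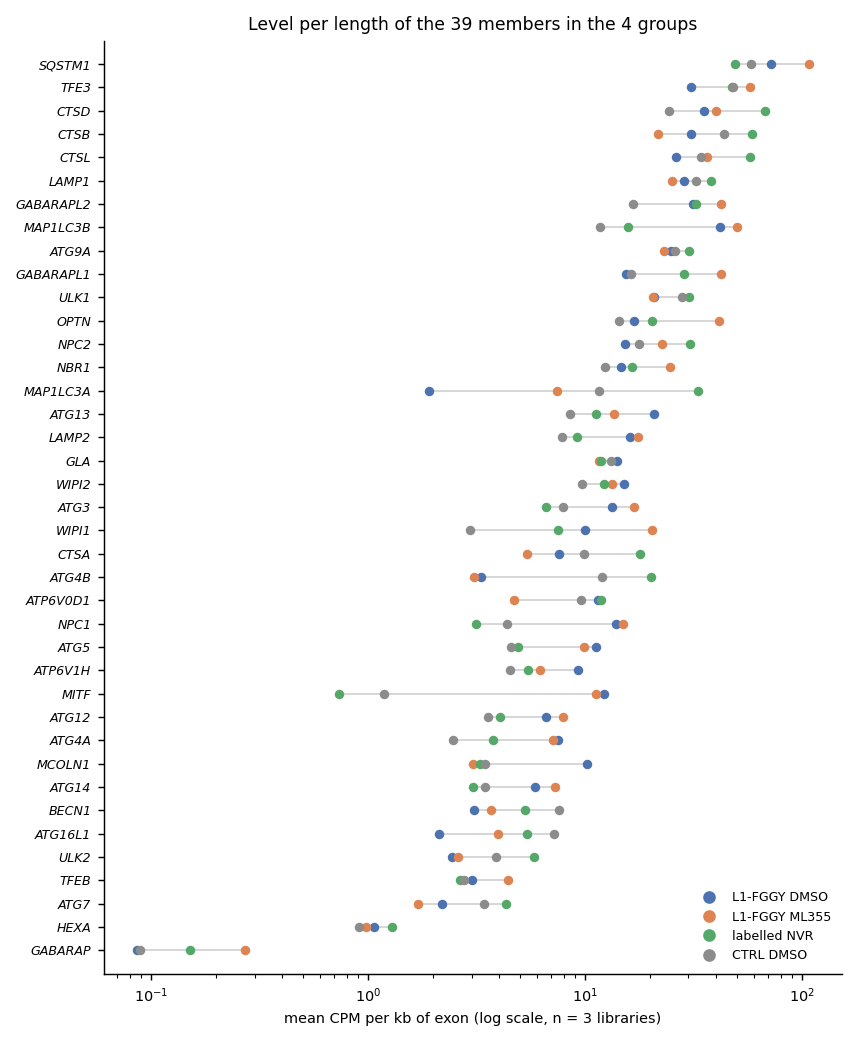
Mean level of each member per kb of exon in the 4 groups (log scale, n = 3 libraries a group), ordered by the mean over groups. *SQSTM1* is at the top and *GABARAP* at the bottom, and *MITF* and *MAP1LC3A* span the widest ranges beside the nearly constant *GLA* and *ATG9A*.

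The first comparison set ML355 against DMSO in OV-L1-FGGY cells. With ML355 all 3 cargo receptors and 3 of 5 ATG8 genes were higher and none was lower, and 3 of 6 genes of the lysosomal membrane and its proton pump were lower and none was higher. In all, 11 of 39 members rose (28.2%) and 6 fell (15.4%) at an adjusted p under 0.01 in edgeR, where 21.3% of the 17849 genes tested rose and 23.5% fell. All 39 members passed the filter on low counts. Their median log2 fold change was 0.129, beside 0 for all genes. With library size alone as the scaling, which lowers the median of all genes by 0.128, the split was 8 higher and 8 lower.

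The cargo receptors moved as a group of 3. *OPTN* (optineurin, chr10:13099449-13138308, plus strand) had 87.2, 88.6 and 82.3 CPM with DMSO and 239.5, 198.7 and 198.7 with ML355. The groups did not overlap, and the change was 2.47-fold (log2 1.30 ± 0.11 SE, adjusted p = 9.54e-08). *NBR1*, a receptor that works beside p62, had 130.4, 117.2 and 122.2 CPM with DMSO and 212.2, 223.7 and 188.7 with ML355, which was 1.69-fold higher (adjusted p = 4.06e-05). *SQSTM1* rose 1.49-fold, from 597.9, 507.9 and 525.9 CPM to 795.7, 827.4 and 809.7 (adjusted p = 0.000501). Its 3 ML355 libraries lay above every other library in the table. The call for *SQSTM1* was lost with library size alone as the scaling.

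Among the ATG8 genes, *MAP1LC3A* (LC3A) was low with DMSO, at 1.72, 2.31 and 2.57 CPM, and reached 9.17, 5.77 and 10.8 CPM with ML355. It was 3.87-fold higher (log2 1.95 ± 0.31, adjusted p = 6.34e-05). *GABARAPL1* (chr12:10212458-10223128, plus strand) rose 2.73-fold, from 57.9, 63.2 and 66.9 CPM to 170.5, 154.2 and 189.6 (log2 1.45 ± 0.12, adjusted p = 4.86e-08). *GABARAPL2* had 99.2, 99.7 and 84.7 CPM with DMSO and 129.6, 127.4 and 125.8 with ML355, or 1.35-fold more (adjusted p = 0.00268). *MAP1LC3B* (LC3B), the form most used as an autophagosome marker, had 222.3, 218.8 and 194.7 against 249.6, 273.2 and 235.1 CPM. The groups did not overlap, but the change of 1.19-fold did not pass the threshold (adjusted p = 0.0349). *GABARAP* had at most 0.631 CPM in any library and gave no call.

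Of the transcription factors, *TFE3* rose 1.87-fold with ML355, from 114.4, 133.9 and 140.5 CPM to 247.7, 221.9 and 258.4 (adjusted p = 5.58e-06). *TFEB* had 17.0, 22.5 and 21.6 CPM with DMSO and 27.1, 26.1 and 35.7 with ML355, which was 1.45-fold higher at an adjusted p of 0.00949. That call was lost with voom, with library size alone, and when any 1 of 8 libraries was left out. *MITF*, the family member best known from pigment cells, had a fold of 0.915 (adjusted p = 0.439).

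Most genes of initiation and conjugation gave no call with ML355. The exceptions were *WIPI1*, *ATG16L1* and *ATG13*. *WIPI1*, which binds the lipid of the growing membrane, rose 2.04-fold, from 36.3, 31.4 and 34.5 CPM to 79.7, 66.8 and 61.7 (adjusted p = 5.26e-05). *ATG16L1*, which places the conjugation complex on the membrane, rose 1.87-fold, from 13.8, 13.04 and 11.7 CPM to 22.6, 25.3 and 24.2 (adjusted p = 7.54e-06). *ATG13*, a partner of the ULK kinases, fell 1.53-fold, from 142.3, 145.8 and 149.0 CPM to 92.8, 108.3 and 84.3 (adjusted p = 0.00014). *ULK1* itself had a log2 fold change of -0.01 ± 0.13 (adjusted p = 0.995), and of the 7 conjugation members those other than *ATG16L1* and *ATG7* lay between -0.18 and 0.33. *ATG7*, the enzyme that activates both conjugation systems, was at -0.36 ± 0.13 (adjusted p = 0.0269).

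Among the members, the largest falls with ML355 were those of *MCOLN1* and *ATP6V0D1* at the lysosomal membrane. *MCOLN1* (chr19:7522624-7534009, plus strand) had 39, 40.1 and 42.5 CPM with DMSO and 12.96, 10.4 and 12.7 with ML355, a 3.37-fold fall (log2 -1.75 ± 0.13, adjusted p = 1.53e-08). Its level with ML355 was within the range of the 6 libraries of the other side or just under it, which ran from 12.1 to 14.9 CPM. *ATP6V0D1* (chr16:67438014-67481181, minus strand) fell 2.45-fold, from 100.3, 91.5 and 90.7 CPM to 39.8, 34.7 and 40.7 (adjusted p = 5.9e-07), and its 3 ML355 libraries were the lowest of all 12. *ATP6V1H*, another subunit of the proton pump, fell 1.49-fold, from 53.5, 46.5 and 42.1 CPM to 33.9, 33.4 and 27.9 (adjusted p = 0.000536). *LAMP1*, *LAMP2* and the cholesterol exporter *NPC1* had log2 fold changes of -0.19, 0.13 and 0.11 and gave no call. All 3 falls held in each fit with 1 library left out.

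In the lysosomal lumen the changes with ML355 were small and went both ways. *CTSA* fell 1.40-fold, from 59.3, 62.8 and 73.9 CPM to 50.8, 41.7 and 47.2 (adjusted p = 0.00466), and *CTSB*, cathepsin B, fell 1.41-fold, from 327.6, 321.5 and 322.9 to 261.9, 227.3 and 198.6 (adjusted p = 0.0017). *CTSL*, cathepsin L, rose 1.39-fold, from 156.1, 156.9 and 168.6 CPM to 238.5, 213.8 and 217.7 (adjusted p = 0.00184). Each of these 3 calls was lost in some fit with 1 library left out, as was that of *GABARAPL2*. *CTSD*, *GLA*, *HEXA* and the cholesterol carrier *NPC2* gave no call.

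**Figure D2:**
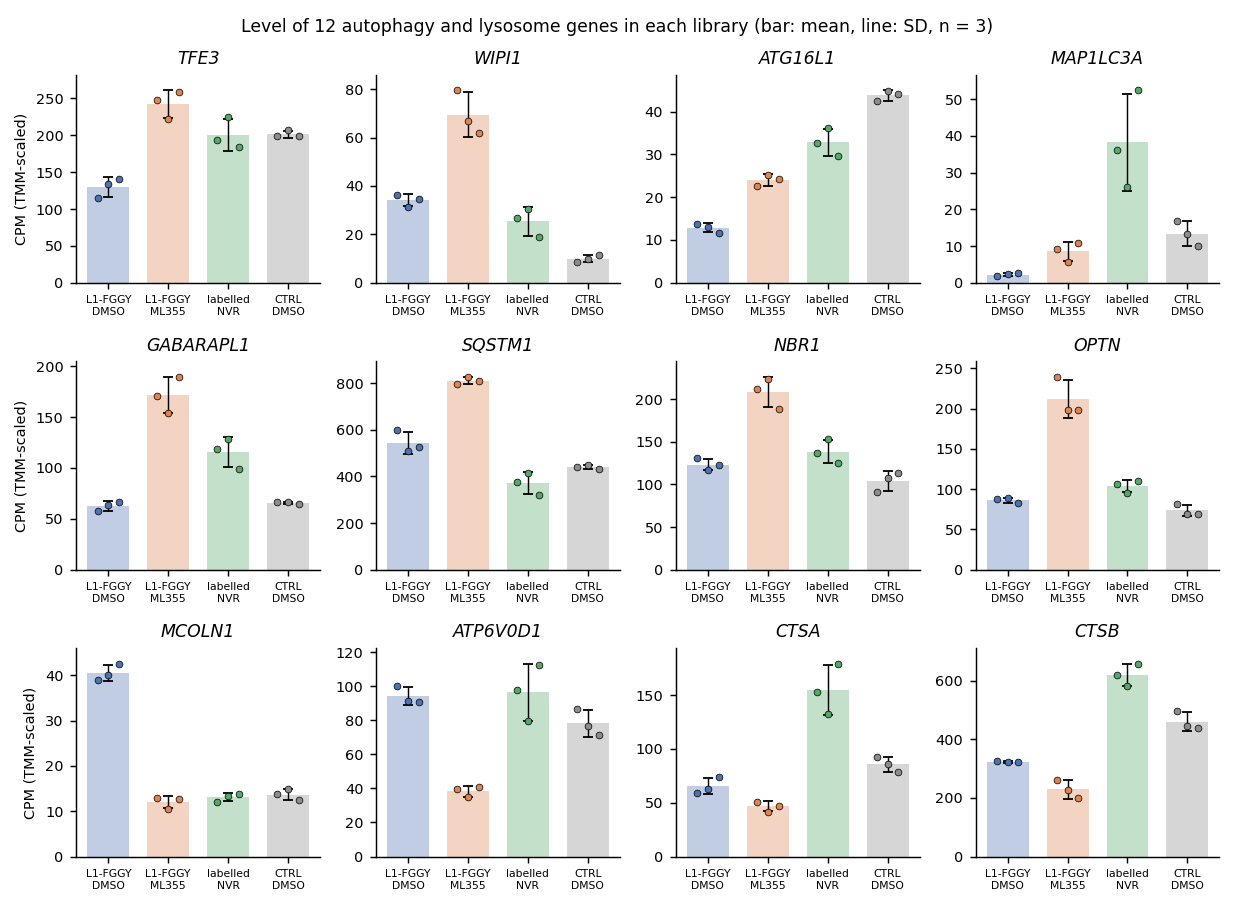
TMM-scaled CPM of 12 members in each library, with bars at the group mean and lines for the SD (n = 3). The 3 cargo receptors and *GABARAPL1* are highest with ML355, *ATP6V0D1* is lowest there, and *CTSA* and *CTSB* are highest in the NVR-labelled libraries.

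The second comparison set the NVR-labelled libraries against OV-CTRL, the group of the same side. In the NVR-labelled libraries, 5 of 7 lumenal genes and 4 of 5 ATG8 genes were higher and none was lower, while none of the 6 genes of the lysosomal membrane and pump passed the test. Over all roles, 16 members were higher (41.0%) and 2 lower (5.13%), against 14.5% and 15.3% of all genes tested, and the median log2 fold change was 0.336 beside 0 for all genes. Only 8 of the 18 calls held in every fit with 1 library left out. The number higher was 9 without replicate 2 or without replicate 3 of OV-CTRL, and 9 with library size alone as the scaling, which lowers the median of all genes by 0.156.

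*CTSA* had 92.8, 85.6 and 78.9 CPM in OV-CTRL and 152.7, 132.5 and 179.1 in the NVR-labelled libraries, which was 1.80-fold more (log2 0.85 ± 0.13, adjusted p = 8.67e-05). *CTSL* was 1.68-fold higher, with 237.8, 198.1 and 191.0 against 357.3, 318.6 and 379.3 CPM (adjusted p = 7.57e-05). For both, the groups did not overlap and the calls held with any library left out. *CTSB* was 1.35-fold higher (adjusted p = 0.00688) and *NPC2* 1.73-fold (adjusted p = 0.00179), and both calls were lost with some library left out. *CTSD*, cathepsin D, had 171.7, 132.6 and 111.1 CPM in OV-CTRL and a wide spread of 355.5, 243.3 and 554.6 in the NVR-labelled libraries. Its change was 2.78-fold (log2 1.47 ± 0.29, adjusted p = 0.000875), and this call too was lost with some library left out.

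The ATG8 genes *GABARAPL1*, *GABARAPL2* and *MAP1LC3A* were 1.75-fold, 1.94-fold and 2.85-fold higher in the NVR-labelled libraries than in OV-CTRL (adjusted p = 4.96e-05, 5.2e-06 and 0.00022), and *MAP1LC3B* was 1.35-fold higher (adjusted p = 0.00235), a call lost with some library left out. *GABARAPL2* had 56.3, 49.2 and 45.1 CPM in OV-CTRL and 100.8, 92.8 and 99.0 in the NVR-labelled libraries. The groups lay well apart. *WIPI1* was 2.55-fold higher, with 8.75, 9.66 and 11.6 against 26.8, 30.7 and 18.9 CPM (adjusted p = 1.44e-05). The protease genes *ATG4A* and *ATG4B*, whose products trim ATG8 proteins before conjugation, were 1.54-fold and 1.68-fold higher (adjusted p = 0.00136 and 0.000402), of which *ATG4A* lost its call with replicate 2 of OV-CTRL left out, and *ULK2* was higher by 0.58 on the log2 scale (adjusted p = 0.00144). *ATG13*, *OPTN* and *NBR1* were 1.32-fold to 1.42-fold higher with adjusted p of 0.00187 to 0.00908, and all 3 calls were lost with some library left out. The 2 lower members, *MITF* (1.62-fold, adjusted p = 0.0022) and *ATG16L1* (1.33-fold, adjusted p = 0.00644), lost their calls in the same way and in a fit of only these 2 groups.

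**Figure D3:**
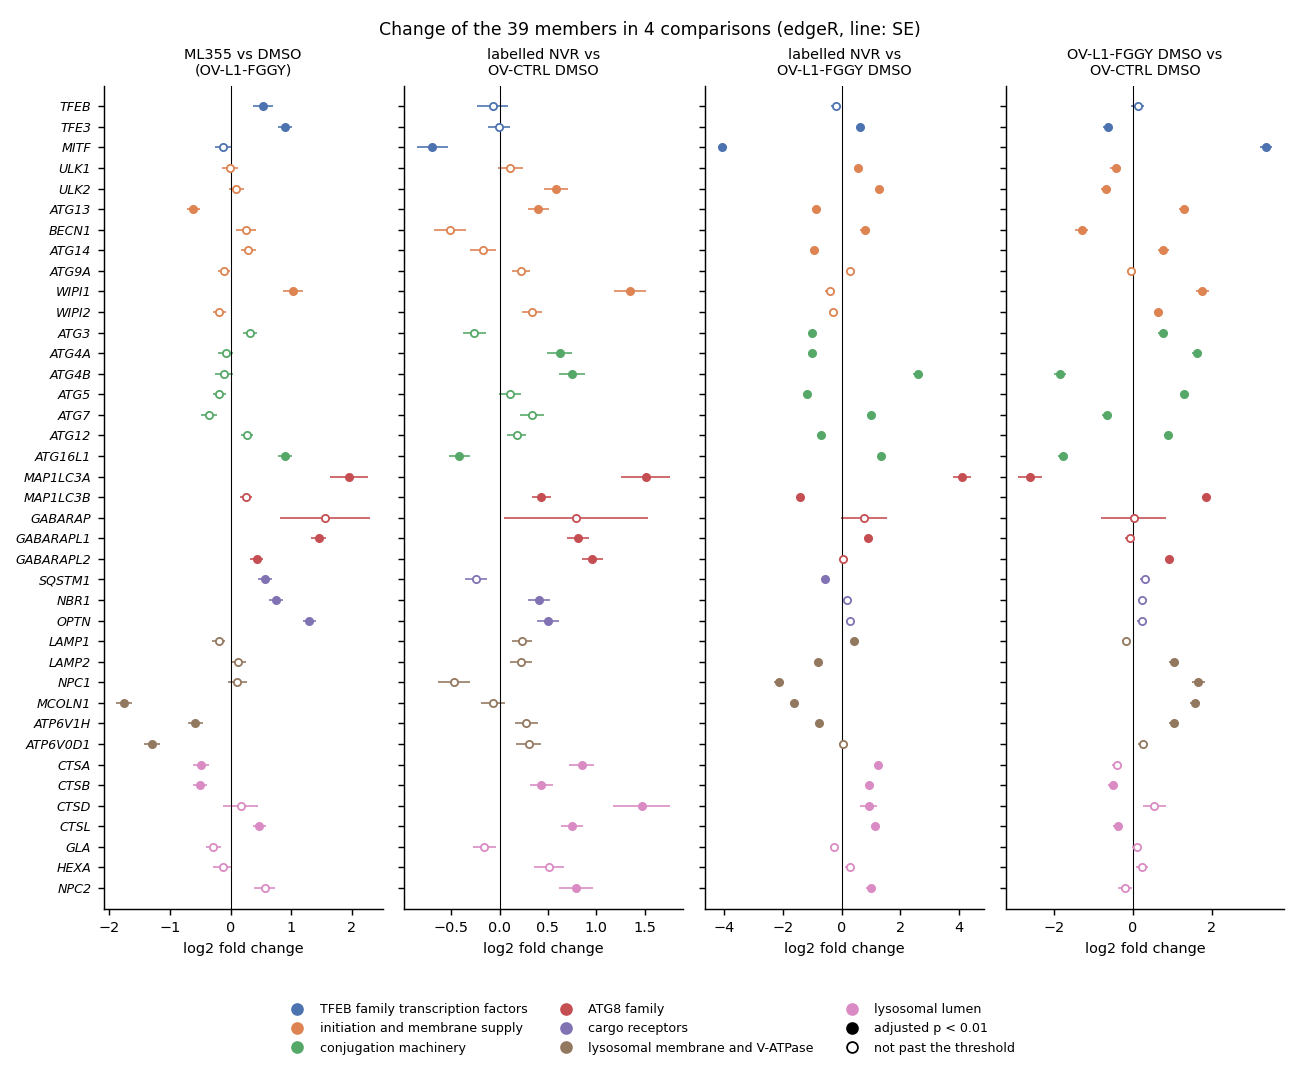
Log2 fold change of the 39 members in the 4 comparisons (line: SE, filled: adjusted p under 0.01 in edgeR, each panel with its own axis). In the first panel 11 are filled to the right of 0 and 6 to the left, and in the second panel 16 and 2.

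Since both comparisons used separate libraries, their changes could be set against each other in a test of the difference. The 2 comparisons differ both in the inhibitor named and in the side, and this test cannot tell these apart. The 2 changes differed in 17 of 39 members (43.6%) at an adjusted p under 0.01, beside 34.1% of all genes tested. In 13 of the 17 (76.5%) the 2 changes were opposite in sign, as they were in 69.7% of all genes that differed. *MCOLN1* and *ATP6V0D1* differed most, with a change in the NVR-labelled libraries that exceeded that with ML355 by 1.69 ± 0.18 and 1.60 ± 0.18 on the log2 scale (adjusted p = 1.72e-06 and 4.02e-06). *CTSA* (1.34 ± 0.18, adjusted p = 2.34e-05), *ATG13* (1.02 ± 0.15, adjusted p = 5.12e-05) and *CTSB* (0.93 ± 0.16, adjusted p = 0.000244) were called in both comparisons in opposite directions. *ATG16L1* was so too, with the other sign (-1.32 ± 0.16, adjusted p = 7.18e-06). *WIPI2* differed as well (0.52 ± 0.15, adjusted p = 0.0077), but it was called in neither comparison. For the cargo receptors *SQSTM1* and *OPTN* the change with ML355 was larger by 0.82 and 0.80 (adjusted p = 0.00067 and 0.000586), whereas *NBR1* did not pass (adjusted p = 0.0932). *WIPI1* and *MAP1LC3A* rose in both, and their changes did not pass the test of a difference (differences of 0.32 ± 0.23 and -0.44 ± 0.40, adjusted p = 0.273 and 0.391).

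**Figure D4:**
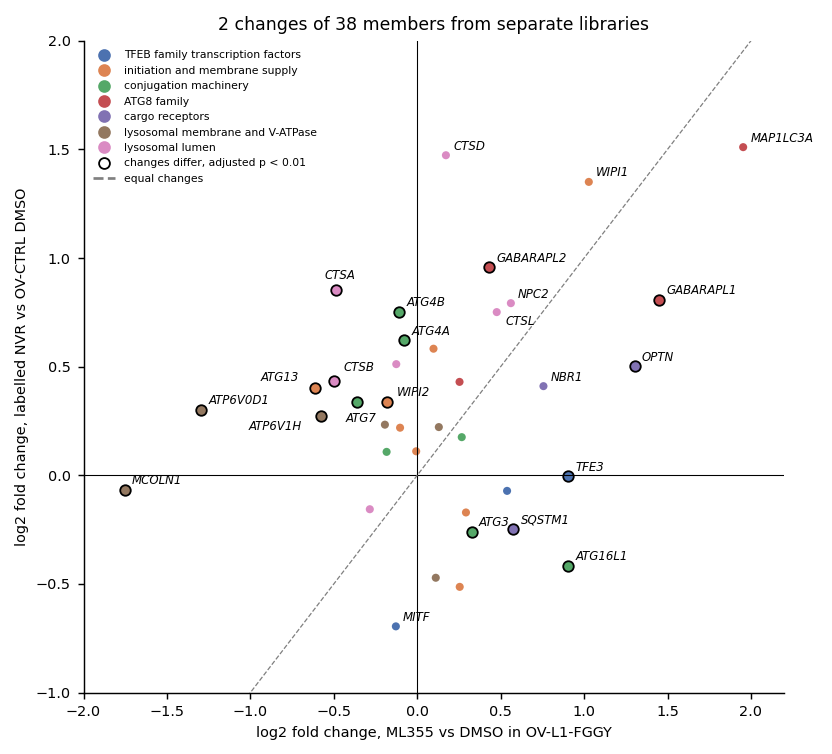
Log2 fold change with ML355 (x axis) and in the NVR-labelled libraries against OV-CTRL (y axis) for 38 members (*GABARAP*, at most 0.631 CPM, is left out). Ringed points are the 17 members whose 2 changes differed, and *MCOLN1*, *ATP6V0D1* and *CTSA* lie far from the dashed line of equal changes.

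The other comparisons cross the 2 sides and share the libraries of L1-FGGY DMSO, so that their values are given side by side. In L1-FGGY DMSO against OV-CTRL the construct cannot be told apart from the split between the sides. This comparison gave 15 members higher (38.5%) and 10 lower (25.6%), beside 32.5% and 36.2% of all genes tested. The NVR-labelled libraries against L1-FGGY DMSO, the comparison the labels imply for NVR, gave 15 higher (38.5%) and 13 lower (33.3%), beside 38.2% and 35.4%, or 10 and 16 with library size alone, which lowers the median of all genes by 0.237. The 6 libraries of each side did not overlap for 19 members, of which 12 were higher in L1-FGGY DMSO and ML355 and 7 in the other side. Over all genes tested, 24.7% and 28.5% were separated in this way.

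The conjugation genes were split between the sides. All 7 were called in both comparisons. Of all genes tested, 68.7% were called in L1-FGGY DMSO against OV-CTRL. The share was 73.6% in the NVR-labelled libraries against L1-FGGY DMSO. *ATG4B* had 19.6, 23.5 and 23.1 CPM in L1-FGGY DMSO, 89.1, 77.7 and 70.8 in OV-CTRL and 129.3, 109.7 and 161.3 in the NVR-labelled libraries. It was 3.59-fold lower than in OV-CTRL (adjusted p = 6.72e-09), and the NVR-labelled libraries exceeded it 6.04-fold (adjusted p = 1.06e-10). *ATG4A*, its paralog, went the other way, with 20.2, 23.4 and 22.6 CPM in L1-FGGY DMSO, 7.28, 6.69 and 7.60 in OV-CTRL and 10.6, 12.0 and 10.5 in the NVR-labelled libraries. It was 3.07-fold higher than in OV-CTRL (adjusted p = 1.08e-08). *ATG5*, *ATG12* and *ATG3* were 2.47-fold, 1.84-fold and 1.69-fold higher in L1-FGGY DMSO than in OV-CTRL, and *ATG16L1* and *ATG7* 3.41-fold and 1.57-fold lower. Of the 8 initiation members, 4 were higher and 3 lower in L1-FGGY DMSO than in OV-CTRL. Among them *BECN1* was 2.45-fold lower (adjusted p = 3.33e-06) and *WIPI2* 1.57-fold higher (adjusted p = 2.75e-05).

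*MITF* had the widest gap among the transcription factors. It had 91.2, 79.8 and 102.4 CPM in L1-FGGY DMSO, 77.7, 94.0 and 78.5 with ML355, 4.20, 5.96 and 6.15 in the NVR-labelled libraries and 9.21, 8.09 and 9.17 in OV-CTRL. The difference between OV-L1-FGGY and OV-CTRL in DMSO was 10.3-fold (adjusted p = 9.06e-12). *TFE3* went the other way, 1.55-fold lower (adjusted p = 8.53e-05), and *TFEB* was near even with a fold of 1.09 (adjusted p = 0.49).

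The LC3 genes were opposed as well. *MAP1LC3B* was 3.59-fold higher in L1-FGGY DMSO than in OV-CTRL, where it had 60.5, 58.0 and 58.8 CPM (adjusted p = 8.64e-11). *MAP1LC3A* was 6.04-fold lower (adjusted p = 9.83e-07), and in the NVR-labelled libraries, at 36.0, 26.2 and 52.5 CPM, it exceeded L1-FGGY DMSO 17.2-fold (adjusted p = 3.32e-09). The 3 cargo receptors gave no call between OV-L1-FGGY and OV-CTRL in DMSO, with folds of 1.17 to 1.24.

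At the lysosomal membrane 4 of 6 members were higher in L1-FGGY DMSO than in OV-CTRL and none was lower. Over all genes tested 32.5% were higher and 36.2% lower. *NPC1* had 137.6, 117.2 and 148.3 CPM against 34.1, 47.3 and 46.0, a 3.16-fold difference (adjusted p = 1.32e-07). *MCOLN1* was 2.97-fold higher (adjusted p = 9.26e-09), and *LAMP2* and *ATP6V1H* were both 2.05-fold higher (adjusted p = 7.5e-07 and 6.42e-07). All 4 were also lower in the NVR-labelled libraries than in L1-FGGY DMSO, by 1.70-fold to 4.38-fold. In the lumen 5 of 7 members, all but *GLA* and *HEXA*, were higher in the NVR-labelled libraries than in L1-FGGY DMSO, by 1.90-fold to 2.37-fold, and none was lower. Over all genes tested in that comparison 38.2% were higher and 35.4% lower. Of the 5 lumenal genes, *CTSD* (1.90-fold, adjusted p = 0.00813) lost its call with voom and with DESeq2. *ATG9A*, *GLA*, *HEXA* and *GABARAP* passed the test in none of the 4 comparisons.

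The rest of the pathway was read from 9 further lists of 174 genes, of which 172 were tested (*MAP1LC3C* and *TFEC* had too few counts). With ML355, 37 of the 172 were higher (21.5%) and 57 lower (33.1%), beside 21.3% and 23.5% of all genes tested. Falls included lysosomal membrane proteins (4 higher and 13 lower of 24), lysosomal enzymes and activators (8 and 19 of 42) and mannose 6-phosphate sorting, which carries enzymes to the lysosome (0 and 5 of 9). *CTNS*, the lysosomal cystine exporter, had 26.96, 26.0 and 27.5 CPM with DMSO and 8.43, 8.29 and 8.30 with ML355, a 3.21-fold fall (adjusted p = 4.75e-09). The channel gene *TPCN2* fell 3.25-fold, *CTSS* (cathepsin S) 3.69-fold and *GNPTAB*, which makes the mannose 6-phosphate mark, 2.24-fold (adjusted p = 3.18e-08, 3.16e-08 and 2.94e-06).

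Of 26 genes of mTORC1 and TFEB control, 10 were higher with ML355 (38.5%) and 4 lower (15.4%), against the same 21.3% and 23.5% of all genes. *SESN2* (sestrin-2), a stress-induced inhibitor of mTORC1, had 9.01, 11.6 and 8.16 CPM with DMSO and 67.0, 123.1 and 92.5 with ML355, which was 9.83-fold more (log2 3.30 ± 0.20, adjusted p = 2.22e-09). *RRAGD*, a GTPase that recruits mTORC1 to the lysosome, had at most 3 counts in each library with DMSO and was at least 9.44-fold higher with ML355, with the floor set at 3 counts per library. Among other cargo receptors, 4 of 15 were higher (26.7%) and 2 lower (13.3%). *CALCOCO2* (NDP52) rose 2.33-fold, from 76.2, 78.7 and 82.3 CPM to 196.3, 177.7 and 178.3 (adjusted p = 4.47e-08), while the ER-phagy receptor *RETREG1* fell 2.94-fold (adjusted p = 7.39e-08). Of the other lists, 3 of 22 V-ATPase subunits were higher and 7 lower, 1 of 13 fusion genes was higher and 3 lower, 4 of 15 initiation genes were higher and 3 lower, and 3 of 6 conjugation genes were higher and 1 lower.

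In the NVR-labelled libraries against OV-CTRL, 56 of the 172 were higher (32.6%) and 7 lower (4.07%), beside 14.5% and 15.3% of all genes tested. Of 42 lysosomal enzymes and activators 21 were higher and none was lower in edgeR at an adjusted p under 0.01, and of 22 V-ATPase subunits 9 were higher and 1 lower. *SMPD1*, acid sphingomyelinase, was 2.95-fold higher and *NEU1*, lysosomal sialidase, 2.87-fold higher (adjusted p = 1.03e-07 and 1.83e-07). *PLD3*, a lysosomal nuclease, was 2.93-fold higher, at 1766 ± 369 against 603.4 ± 68.4 CPM (SD, n = 3, adjusted p = 3.26e-06). The 2 changes differed by the test in 84 of the 172 genes (48.8%), beside 34.1% of all genes tested. In 72 of the 84 (85.7%) the change in the NVR-labelled libraries was the more positive, beside 49.3% of all genes that differed. For enzymes and activators this was 28 of the 29 that differed, and for lysosomal membrane proteins 14 of 15.

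**Figure D5:**
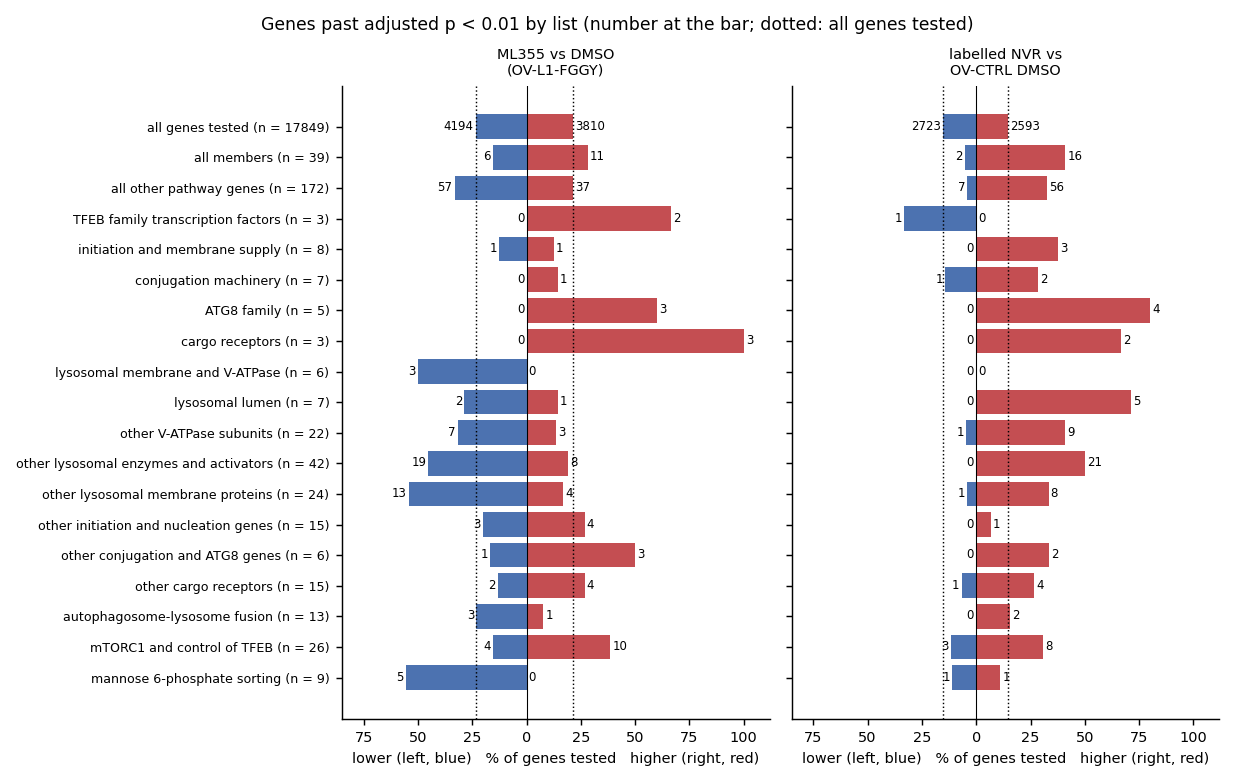
Share of genes past an adjusted p under 0.01 in each list, higher to the right and lower to the left, with the number at the bar and the share of all genes tested as dotted lines. With ML355 the left bars of the lysosomal membrane, lumen and enzyme lists extend past the dotted line. So do those of V-ATPase subunits, mannose 6-phosphate sorting and all other pathway genes. In the NVR-labelled libraries against OV-CTRL most right bars pass the line, with the longest for ATG8 genes, lumenal members and member cargo receptors. Those of the TFEB family, member membrane and pump genes, other initiation genes and mannose 6-phosphate sorting do not.

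Across the sides, L1-FGGY DMSO against OV-CTRL gave 73 higher (42.4%) and 62 lower (36.0%) of 172, beside 32.5% and 36.2% of all genes. The NVR-labelled libraries against L1-FGGY DMSO gave 73 higher (42.4%) and 61 lower (35.5%), beside 38.2% and 35.4%. Single genes were far apart. *GAA*, acid alpha-glucosidase, had 9.86 ± 0.86 CPM in L1-FGGY DMSO and 420.9 ± 29.0 in OV-CTRL, 42.7-fold more (adjusted p = 3.67e-14). *RETREG1* was 25.1-fold and *VAMP8*, a SNARE of autophagosome fusion, 13.1-fold higher in L1-FGGY DMSO (adjusted p = 3.05e-13 and 3.04e-10). *ATP6V1A*, the catalytic subunit of the proton pump, was 4.17-fold higher there (adjusted p = 1.79e-10).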

How the data were processed

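RNA of 12 libraries was analysed as whole-number counts per gene, which the authors made with STAR 2.5.3a on hg38 and HTSeq 0.11.2 and deposited without normalization. Neither the annotation release nor the strand setting is given in the sources used here, nor is the handling of multi-mapped reads. The library kit was TruSeq by the labels but NEB by the methods. Symbols, positions and exon lengths came from GENCODE 44, which matched 57532 identifiers on the same build.

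Counts were fitted in R 4.3.3 with edgeR 4.0.16 (filterByExpr, TMM, robust quasi-likelihood fit of 4 group means, Benjamini-Hochberg adjusted p under 0.01 over all 17849 genes tested). The study's own test, voom of limma 3.58.1, and DESeq2 1.42.0 were alternatives, with other scalings, filters and thresholds, a fit of only the groups compared, a replicate block and each library left out. CPM was scaled by TMM, and the common biological coefficient of variation was 0.143. The code was tested on simulated counts. Libraries of a group differed by more than sampling noise (chi-square per degree of freedom at least 6.49). A floor of 3 counts covers counting error only and lay at 0.111 to 0.172 CPM.

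The members and lists were chosen with earlier results of these data known. Every member is named, with up to 2 genes per further list and comparison, those with the smallest adjusted p. Examples of the lists were drawn from these. Figures used Python 3.11.15, pandas 2.3.3 and matplotlib 3.10.9.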

Additional observations from a re-analysis of the deposited data

Results flagged for a closer look

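In 17 of the 39 members the change in the NVR-labelled libraries against OV-CTRL differed from that with ML355, by a test of the difference itself (edgeR, adjusted p under 0.01). Over all genes tested the share was 34.1%. The 2 comparisons differ in the inhibitor named and in the side, which cannot be told apart here. The largest differences were at *MCOLN1* and *ATP6V0D1*, with log2 fold changes of -1.75 and -1.29 with ML355 and of -0.07 and 0.30 in the NVR-labelled libraries against OV-CTRL.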

How the results depend on the processing

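No direction of a member's called change was reversed under any alternative run. When single libraries were left out, the members higher and lower ranged from 9 to 12 and from 4 to 6 with ML355, from 9 to 18 and from 0 to 4 in the NVR-labelled libraries against OV-CTRL, from 13 to 15 and from 13 to 14 in those libraries against L1-FGGY DMSO, and from 15 to 16 and from 8 to 11 between OV-L1-FGGY and OV-CTRL. Members whose 2 changes differed ranged from 12 to 18. The number lower than OV-CTRL, 2 in the report, was 0 without NVR replicate 1, 1 without NVR replicate 3, OV-CTRL replicate 2 or 3, or replicate 2 of L1-FGGY DMSO, and 4 without NVR replicate 2. It was also 1 with DESeq2 size factors, 0 with only the groups compared and 4 at an adjusted p under 0.05. The number higher than OV-CTRL was 9 with library size alone. The causes were not tested. When the log2 fold change had to be 1 or more in size, the members higher and lower were 4 and 2 with ML355, 3 and 0 in the NVR-labelled libraries against OV-CTRL, and 6 and 6 against L1-FGGY DMSO. Between OV-L1-FGGY and OV-CTRL, 14 members had a change of that size in either direction, and 4 were lower in OV-L1-FGGY. With this limit 5 members differed between the 2 changes. At an adjusted p under 0.05, 26 differed.

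Equal replicate numbers did not pair the libraries, since correlations of their deviations ran from -0.354 to 0.17. With the number as a replicate block, the members higher and lower were 11 and 6, 14 and 2, 15 and 13, and 15 and 10 in the order above, and 14 differed between the 2 changes. Low counts limit *GABARAP*, which had at most 0.631 CPM.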
